A study of Mus musculus with 29 samples.

Results

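The mRNAs of 10 inflammatory genes were followed through the TRAP-RNAseq libraries of Aldh1l1-NuTRAP and Cx3cr1-NuTRAP mouse brain, to ask if the handling of tissue before ribosome capture comes with an inflammatory transcript response. The genes were taken by their symbols: the cytokines Il1a, Il1b, Tnf and Il6, the chemokines Ccl2, Ccl3, Ccl4 and Ccl12, and Nfkbia and Nfkbiz, which encode inhibitor-type partners of the transcription factor NF-κB. All 10 were found among the 36172 gene rows of the table, each on 1 row. TRAP (translating ribosome affinity purification) uses a Cre-dependent transgene, NuTRAP, to place an EGFP-tagged ribosomal protein in chosen cells, so that an antibody to GFP pulls down the mRNAs on the ribosomes of those cells.

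Of the 29 libraries, 6 were from Aldh1l1-Cre/ERT2+; NuTRAP+ mice, in which the Aldh1l1 promoter directs the tag to astrocytes, as the negative (unbound) and positive (bead-bound) fractions of 3 mice. The other 23 were from Cx3cr1-Cre/ERT2+; NuTRAP+ mice, in which the Cx3cr1 promoter directs it to microglia and to any other cell that uses Cx3cr1, such as the macrophages of the brain's borders. These were the input (cleared homogenate before capture), negative and positive fractions of 6 mice and whole tissue RNA of 5 of the same mice. All mice had been given tamoxifen on 5 consecutive days from about 3 months of age, including those behind every control fraction, and males and females are not told apart in the labels. The input came from brain minced and homogenised in ice-cold buffer with cycloheximide, a translation inhibitor, then spun to clear debris, while whole tissue RNA was isolated directly and carries the column title "Slice". The study's methods name this tissue as brain, and the sources used here do not say which part of it the title stands for. The buffer of the input also held a detergent, and the input is the supernatant of the spin, without the RNA left in the pellet. A difference in the part of brain sampled, or in the RNA lost with the pellet, cannot be told apart from handling in the comparison of input with whole tissue.

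Total counts ran from 15486605 to 26857866 in the input, negative and positive libraries of Cx3cr1-NuTRAP mice, from 8782235 to 25137834 in those of Aldh1l1-NuTRAP mice, and from 4260949 to 25026611 in whole tissue, where mouse 210 gave the shallowest library of all. That library also stood apart from the other whole tissue libraries by its endothelial sum of 163.1 CPM, the lowest, and its microglia sum of 617.1 CPM, the highest. With the whole tissue of mouse 277 it shared higher sums of choroid plexus genes (821.7 and 986 CPM against 207.7 to 397.1 CPM in the other 3) and of immediate early genes (1484 and 1416 against 1054 to 1102 CPM). Among the positive fractions of Cx3cr1-NuTRAP mice, those of mice 155, 192 and 194 held 93.3 to 120.4 CPM of endothelial and 1172 to 1437 CPM of immediate early genes, and those of mice 209, 210 and 277 held 182.9 to 198.6 and 1714 to 1740 CPM. The positive fraction of mouse 194 was also the highest in microglia genes, at 8634 CPM, and in border macrophage genes, at 261.9 CPM against 78.6 to 115.1 CPM. Levels are in CPM, counts per 1000000 counts of the library, so 1 read was worth most CPM in the whole tissue library of mouse 210. Labels were checked against markers: summed over 12 microglia genes the positive fraction of Cx3cr1-NuTRAP mice held 3573 to 8634 CPM against 431.5 to 472.4 CPM in input and 406.6 to 617.1 CPM in whole tissue, and summed over 8 astrocyte genes the positive fraction of Aldh1l1-NuTRAP mice held 16120 to 23940 CPM against 3048 to 3975 CPM in its negative fraction. All levels are shares of RNA, in which fewer cells of a type and less RNA per cell cannot be told apart.

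Resting microglia are known to make little of these cytokines. When a microglial cell meets a danger signal, NF-κB enters the nucleus and switches on the genes of interleukin 1, TNF, interleukin 6 and the chemokines within a short time, and it also switches on Nfkbia and Nfkbiz, which feed back on it. Cell preparation, above all at warm temperature, is known to set off such a program together with immediate early genes, which is why these transcripts serve as a check of handling.

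In mm10 coordinates, Il1a (Entrez 16175, chr2:129299610-129309972) and Il1b (16176, chr2:129364580-129371120) are neighbours on the minus strand, Tnf (21926) lies at chr17:35199391-35201996 and Il6 (16193) at chr5:30013161-30019968. The chemokine genes form 2 pairs on chromosome 11: Ccl2 (20296, chr11:82035577-82037452) with Ccl12 (20293, chr11:82101845-82103399), and Ccl3 (20302, chr11:83647843-83649378) with Ccl4 (20303, chr11:83662584-83664683). Nfkbia (18035) lies at chr12:55489409-55492647 and Nfkbiz (80859) at chr16:55811377-55838641.

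The DNA just ahead of several of these genes carries the letters of known promoter elements. RefSeq promoter sequence (GRCm38.p6) was matched for 7 of the 10 genes, and not for Ccl2, Ccl4 and Nfkbiz. The 250 bases before the start are shown, 5′ to 3′ on the gene's strand, for Il1a and Ccl12, the members with the most counts on microglial ribosomes among the secreted ones, and for Il6 and Nfkbia, the members with a match to the NF-κB consensus. Capitals mark a TATA box (TATAAA) in the first pair and the NF-κB consensus in the second, each searched on both strands.
Il1a, chr2:129309973-129310222, minus strand: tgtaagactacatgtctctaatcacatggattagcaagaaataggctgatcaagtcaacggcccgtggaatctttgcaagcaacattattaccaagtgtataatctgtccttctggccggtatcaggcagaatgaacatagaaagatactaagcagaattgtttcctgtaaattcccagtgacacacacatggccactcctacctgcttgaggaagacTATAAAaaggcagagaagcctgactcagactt
Ccl12, chr11:82101595-82101844, plus strand: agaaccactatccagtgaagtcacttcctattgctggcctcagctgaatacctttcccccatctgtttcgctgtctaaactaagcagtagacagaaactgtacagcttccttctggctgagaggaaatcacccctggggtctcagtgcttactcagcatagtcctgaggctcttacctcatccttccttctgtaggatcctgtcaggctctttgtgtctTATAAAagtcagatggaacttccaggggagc
Il6, chr5:30012864-30013113, plus strand: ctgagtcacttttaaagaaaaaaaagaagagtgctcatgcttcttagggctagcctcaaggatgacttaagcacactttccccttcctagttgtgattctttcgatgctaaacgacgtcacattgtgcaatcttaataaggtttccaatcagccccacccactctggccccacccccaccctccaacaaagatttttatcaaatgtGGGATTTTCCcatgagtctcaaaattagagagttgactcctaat
Nfkbia, chr12:55492648-55492897, minus strand: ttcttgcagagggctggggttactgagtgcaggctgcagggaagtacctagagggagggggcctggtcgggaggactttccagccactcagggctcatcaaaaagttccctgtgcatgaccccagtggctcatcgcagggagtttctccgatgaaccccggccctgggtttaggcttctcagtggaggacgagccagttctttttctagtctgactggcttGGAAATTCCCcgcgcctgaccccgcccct
TATAAA stood 24 to 32 bases before the start in 4 of the 7 (Il1a, Il1b, Tnf and Ccl12), and 12.4% of all 32851 windows of this length held it on either strand. The 10-base NF-κB consensus was matched in Il6, 35 to 44 bases before the start, and on the opposite strand in Nfkbia, 20 to 29 bases before it, against 3.9% of all windows. Ccl3 held neither. Distances count from the start in the promoter entry, which for Il1b, Tnf and Il6 lies outside the gene coordinates given above. A match describes letters and not binding.

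**Figure D1:**
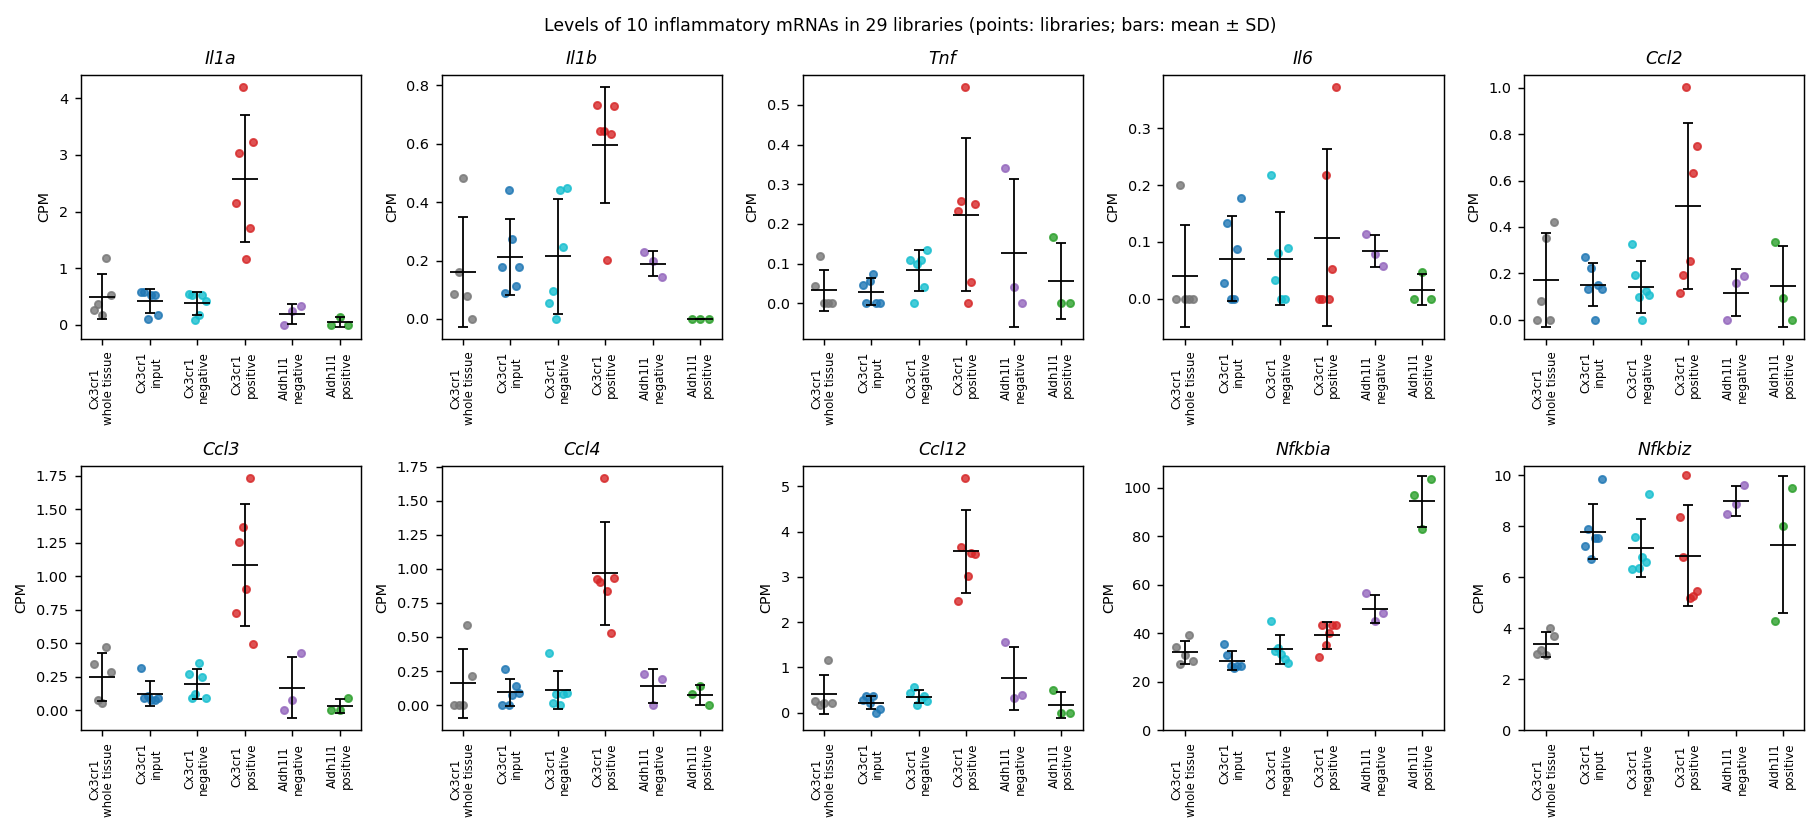
Each panel plots the level of 1 gene in CPM (vertical axis) in the 29 libraries, grouped by line and fraction (horizontal axis), with points for libraries and bars for the mean ± SD. Ccl3 and Ccl12 are higher in every positive fraction of Cx3cr1-NuTRAP mice than in any other library, Il1a and Ccl4 overlap there only with the whole tissue of mouse 210 (1.17 and 0.587 CPM), Nfkbia is highest in the positive fraction of Aldh1l1-NuTRAP mice, and Nfkbiz is lowest in whole tissue, at 2.94 to 4.01 CPM.

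The first comparison set input against whole tissue in Cx3cr1-NuTRAP mice. Nfkbiz was higher in input in every mouse with both libraries. The 8 secreted factors were close to the limit of detection in both groups with no difference detectable at this depth, and Nfkbia did not pass the test. Of the 10 genes, 2 had enough counts for the filter (more than 20 counts in every library of a group). With edgeR's quasi-likelihood test, 1 of these 2 was higher in input and 0 were lower, where 15.7% of the 13608 genes tested were higher and 14.6% lower. With no filter all 10 could be fitted, and again 1 was higher and 0 lower, against 10.2% and 7.82% of 21185 genes.

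Among the cytokines, Il1a, which encodes the alarm cytokine interleukin 1 alpha, had 13, 13, 2, 14, 14 and 4 counts in the 6 inputs, in the order of mice 155, 192, 194, 209, 210 and 277. In the whole tissue of mice 192, 194, 209, 210 and 277 it had 6, 9, 4, 5 and 10 counts. The groups overlapped, with a mean level of 0.414 ± 0.212 CPM (SD, n = 6) in input and 0.499 ± 0.399 CPM (n = 5) in whole tissue (exact permutation test, two-sided, p = 0.721). The shallow whole tissue library of mouse 210 decided which mean was the higher: its 5 counts came to 1.17 CPM, and without it whole tissue stood at 0.330 CPM, below input (exact permutation p = 0.505, n = 6 and 4). Pooled over libraries, the rate in input was 1.2 times that in whole tissue, with a 95% interval of 0.774 to 1.88 that covers counting error only.
Il1b, the other interleukin 1 ligand, had 2 to 8 counts in the inputs and 0 to 11 in whole tissue (p = 0.597 in the exact permutation test, pooled ratio 1.12, interval 0.591 to 2.18). Tnf had 4 counts in all 6 inputs together and 4 in all 5 whole tissue libraries, at or under the floor of 3 counts in each of them, so no fold is given. Il6 had 10 and 5 counts over the same libraries, and all 5 of the latter came from mouse 194.

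The chemokines were as scarce. Ccl2, the main attractant of monocytes, had 0 to 6 counts in the inputs and 0 to 8 in whole tissue. Ccl3 and Ccl4, the macrophage inflammatory proteins, had 2 to 7 and 0 to 6 counts in the inputs and 1 to 8 and 0 to 4 counts in whole tissue. Ccl12, a rodent relative of Ccl2, had 0 to 10 and 4 to 6 counts.
None of the 4 passed the exact permutation test, whose smallest p was 0.165, for Ccl3, at 0.125 CPM in input and 0.248 CPM in whole tissue. The pooled ratios of input to whole tissue were 0.754 (interval 0.379 to 1.51) for Ccl2, 0.607 (0.296 to 1.23) for Ccl3, 1.58 (0.572 to 5.03) for Ccl4 and 0.848 (0.479 to 1.52) for Ccl12. An increase in input of up to 1.23-fold for Ccl3 and up to 5.03-fold for Ccl4 thus lies within counting error.
In the fit with no filter the adjusted p of the 8 secreted factors ran from 0.472 to 0.957, and their log2 fold changes had 95% intervals as wide as -2.68 to 1.84, for Tnf, and -1.84 to 2.8, for Il6. Without the whole tissue of mouse 210 the mean of Ccl4 in whole tissue was 0.0527 CPM in place of 0.159 CPM, which turned it from above to below the 0.0944 CPM of input (exact permutation p = 0.524, n = 6 and 4). That of Ccl12 was 0.211 in place of 0.401 CPM, also turning to below the 0.217 CPM of input (exact permutation p = 0.952, n = 6 and 4).

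Nfkbia encodes IκBα, which holds NF-κB in the cytoplasm and is itself one of its most direct targets. It was measured at 35.7, 31.0, 26.5, 25.6, 26.5 and 26.4 CPM in the 6 inputs, and at 34.3, 27.2, 31.1, 39.2 and 28.6 CPM in whole tissue. The ranges overlapped, although input was the lower in 5 of 5 mice, at 0.677 to 0.972 times whole tissue. The difference did not pass the test (log2 fold change -0.16, SE 0.10, interval -0.38 to 0.06, adjusted p = 0.268), and without the whole tissue of mouse 210 the means were 28.6 CPM in input and 30.3 CPM in whole tissue (exact permutation p = 0.481, n = 6 and 4).

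Nfkbiz encodes IκBζ, a nuclear member of the family that is needed for part of the secondary NF-κB response, Il6 among it. Its level was 7.23, 7.87, 6.70, 7.54, 7.53 and 9.86 CPM in the inputs, with 121 to 223 counts behind each value. Whole tissue held 3.01, 3.14, 2.94, 4.01 and 3.70 CPM, from 67 to 79 counts in 4 libraries and 17 in that of mouse 210. The higher whole tissue values were those of mice 210 and 277. Every input lay above every whole tissue library, and the ratio within a mouse ran from 1.88 to 2.67. Nfkbiz was 2.36-fold higher in input (log2 fold change 1.24, SE 0.14, interval 0.94 to 1.54, adjusted p = 6.7e-05), and the exact permutation p of 0.00216 is the smallest that this design can give. Without the library of mouse 210 the means were 7.79 and 3.20 CPM, and scaling to the microglia list in place of all genes left the log2 fold change at 1.24.

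**Figure D2:**
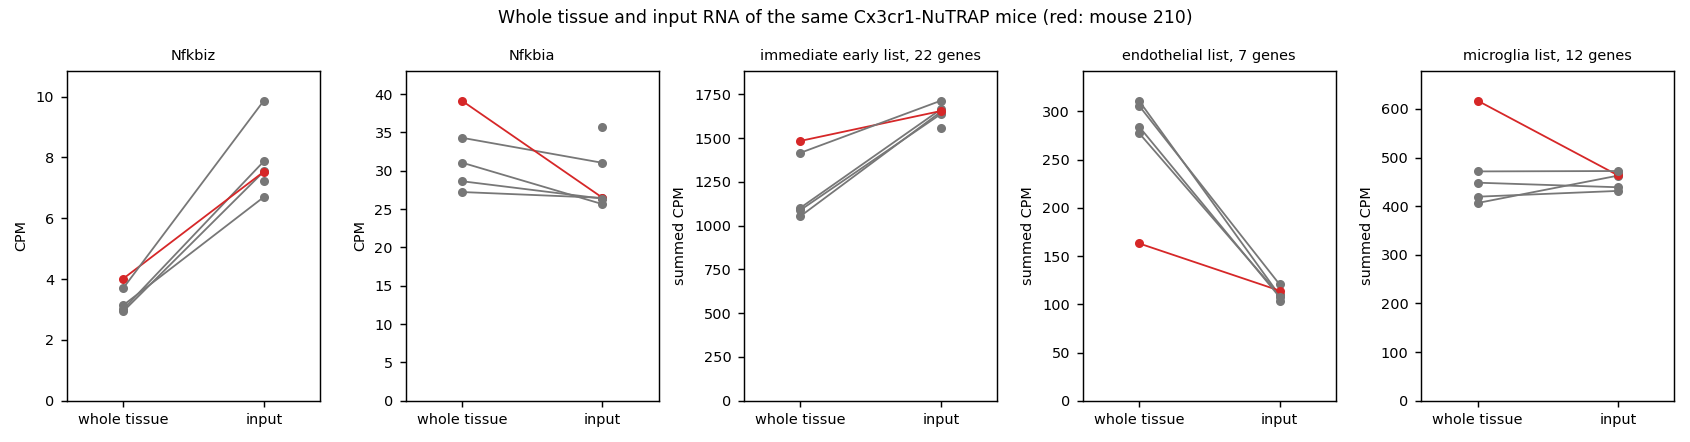
The panels plot, for Nfkbiz and Nfkbia in CPM and for 3 gene lists in summed CPM (vertical axes, from 0), whole tissue and input of the Cx3cr1-NuTRAP mice, with lines joining the libraries of 1 mouse, mouse 210 in red, and the input of mouse 155 as a point with no line. Nfkbiz and the immediate early list are higher in input in each of the 5 mice, the endothelial list is lower in each, and the microglia list stays between 406.6 and 617.1 CPM.

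Other gene groups of the same pathway were counted in the same fit, beside the 15.7% of all genes that were higher and the 14.6% that were lower. Of 14 further NF-κB subunits, inhibitors and kinases tested, 3 were higher in input and 0 lower: the kinase Chuk (log2 fold change 0.74, adjusted p = 0.000649), the nuclear inhibitor Nfkbid (0.80, 0.0165) and the kinase Ikbkb (0.24, 0.039), with a median of 0 over the 14 and 0 over all genes tested. Of 6 further inflammatory effectors, 2 were higher (Casp1, the caspase of the inflammasome, 0.89, and Ptgs2, the inducible prostaglandin synthase, 0.58) and 2 lower (the adhesion molecule Vcam1, -0.46, and the superoxide dismutase Sod2, -0.15). Of the other cytokines tested, 2 of 6 were higher and 1 lower, of the other chemokines 2 of 8 higher and 1 lower, and of the receptors 0 of 7 higher and 2 lower. The lowest adjusted p in these 3 lists was 4.19e-05, for Cxcl12 (-0.92), a chemokine made by vessels and neurons.
Immediate early genes, transcription factors and feedback genes that need no new protein to switch on, also differed between these libraries: 14 of 22 were higher in input and 3 lower, with a median of 0.41. Those with the lowest adjusted p were Fosl2 (0.68, adjusted p = 0.000111), Klf4 (-0.96, 0.000172) and Egr1 (0.77, 0.000577), and the 3 lower ones were Klf2, Klf4 and Klf6. Of 7 heat shock genes, 0 were higher and 3 lower.

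Cell type markers differed between the same libraries. All 7 endothelial genes were lower in input, with a median log2 fold change of -1.33 and summed levels of 103.6 to 120.6 CPM against 163.1 to 311 CPM, and 5 of 6 oligodendrocyte genes were lower. Neuronal genes were higher for 4 of 7 and lower for 1, and choroid plexus genes for 2 of 6, at 832 to 999.5 CPM in input and 207.7 to 986 CPM in whole tissue. Of 8 astrocyte genes 3 were lower.
None of the 12 microglia genes passed the test, with a median of -0.05, nor did any of 3 border macrophage genes, 4 red cell genes and 1 monocyte or neutrophil gene. Summed over 11 monocyte and neutrophil genes the levels were 3.57 to 6.99 CPM in input and 3.85 to 7.15 CPM in whole tissue. In single libraries 0 to 4 of these 11 genes were at 0. The part of the endothelial, oligodendrocyte, astrocyte, neuronal and choroid plexus differences in the value of Nfkbiz was not tested.

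The second comparison set the negative fraction against input, which differ by the cold incubation with antibody and beads and by the removal of bound ribosomes. Both came from the same cleared detergent homogenate, in which cells are no longer intact. A response of living cells could therefore not appear in this comparison, and no conclusion on one is drawn from it. The 8 secreted factors stood at 0 to 13 counts in every negative library, and none passed a test against input. Of the 2 genes that passed the filter, 0 were higher and 0 lower, where 1.41% of 13748 genes were higher and 4.7% lower, and with no filter 0 of 10 were called, against 0.251% and 1.08%.
The smallest exact permutation p of the 8 was 0.0671, for Tnf, at 10 counts in the 6 negative fractions and 4 in the 6 inputs. Ccl12 had 46 against 30 counts (pooled ratio 1.6, interval 0.986 to 2.62) and Il1a 49 against 60 (0.85, 0.571 to 1.26).

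Nfkbia was measured at 44.9, 32.6, 33.8, 31.6, 29.5 and 27.7 CPM in the negative fractions and was above the input of its own mouse in 6 of 6 mice, by 1.05 to 1.28 times. The groups as a whole overlapped, and the difference did not pass the test without regard to mouse (log2 fold change 0.23, SE 0.12, adjusted p = 0.196). With the mouse as a block it did (0.22, SE 0.06, adjusted p = 0.00984), in a fit that also called 2431 genes higher and 2684 lower in place of 194 and 646. It did so too without mouse 155, whose negative fraction was the highest (0.19, adjusted p = 0.0407). Nfkbiz was lower than input in 6 of 6 mice, at 0.872 to 0.961 times, but passed with neither fit (-0.12, SE 0.12, adjusted p = 0.499, and 0.304 with the block). Of 22 immediate early genes 0 were higher and 1 lower (Egr3, -0.56).

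**Figure D3:**
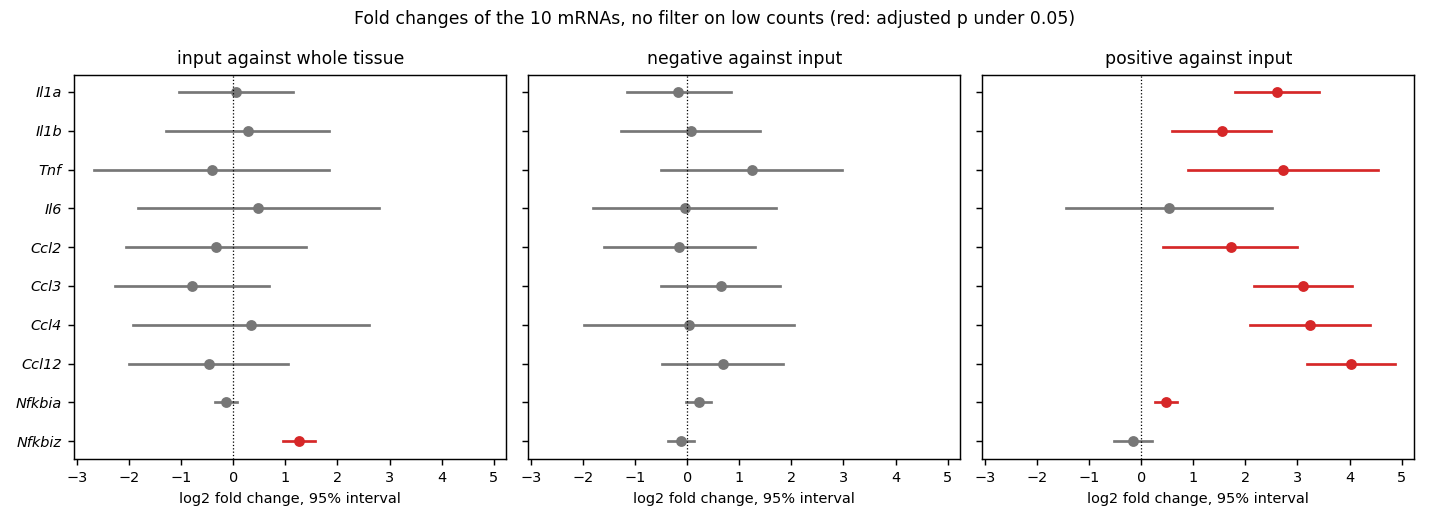
The 3 panels plot the log2 fold change of each gene (points) with its 95% interval (lines) from the fit with no filter on low counts, for input against whole tissue, negative fraction against input and positive fraction against input in Cx3cr1-NuTRAP mice, in red where the adjusted p was under 0.05. Nfkbiz is the 1 gene in red in the first panel, 0 genes are in red in the second and 8 in the third.

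The third comparison asked which of these mRNAs were on microglial ribosomes. The positive fraction of Cx3cr1-NuTRAP mice held more Il1a, Ccl12, Ccl3 and Ccl4 than input in 6 of 6 mice, with no overlap of the groups. The share of all genes that separated in this way was not counted. Of the 4 genes that passed the filter, 3 were higher and 0 lower, where 23.3% of 13838 genes were higher and 25.6% lower. Il1a and Ccl12 passed the filter only through the positive fraction, where they were high, so this count says nothing about the members. With no filter 8 of 10 were higher and 0 lower, against 15.7% and 15.2% of 21174 genes. These counts refer to shares of all RNA, and the fraction also held more microglial RNA as a whole.

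Ccl12 had 43, 57, 95, 60, 67 and 56 counts in the positive fractions of mice 155, 192, 194, 209, 210 and 277, or 2.47, 3.67, 5.19, 3.02, 3.53 and 3.50 CPM. Its level in the inputs was 0 to 0.372 CPM. The mean of 3.56 ± 0.911 CPM (SD, n = 6) against 0.217 CPM came to a log2 fold change of 4.02 (SE 0.38). The fit with no filter, which does not select genes by their counts in 1 group, gave 4.03 and also called Ccl12.
Il1a reached 2.14, 3.04, 4.21, 1.16, 1.70 and 3.22 CPM in the same order, from 23 to 77 counts. The lowest was from mouse 209 and the highest from mouse 194, and all 6 lay above the highest input at 0.581 CPM. The log2 fold change was 2.59 (SE 0.38), and 2.605 in the fit with no filter, which also called Il1a.
Ccl3 had 8 to 33 counts and Ccl4 10 to 31, at means of 1.08 and 0.967 CPM against 0.125 and 0.0944 CPM in input. In the fit with no filter their log2 fold changes were 3.11 (SE 0.45, adjusted p = 3.76e-05) and 3.23 (SE 0.55, adjusted p = 0.000199).

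The remaining cytokines were lower in counts and less even. Il1b had 13, 10, 12, 4, 12 and 12 counts, and all but that of mouse 209 lay above the highest input (log2 fold change 1.55 with no filter, adjusted p = 0.0141, and 0.0432 with the mouse as a block). Tnf had 4, 4, 10, 0, 1 and 4 counts, a pooled ratio of 7.54 to input with an interval of 2.58 to 30 and an adjusted p of 0.0226. Ccl2 had 2, 3, 18, 5, 12 and 12 counts, and the libraries of mice 155, 192 and 209 fell within the range of the inputs in CPM (adjusted p = 0.0415).
With the mouse as a block neither Tnf (adjusted p = 0.0929) nor Ccl2 (adjusted p = 0.0886) passed. Single mice decided these 3 calls: without mouse 192, 210 or 277 the adjusted p of Il1b was 0.053, 0.0521 and 0.0582, without mouse 192, 194 or 277 that of Tnf was 0.0771, 0.0781 and 0.0747, and without mouse 192, 194, 209, 210 or 277 that of Ccl2 was 0.0526 to 0.133. Il6 had 0, 0, 4, 0, 1 and 6 counts and did not pass the test (log2 fold change 0.53, interval -1.45 to 2.51, adjusted p = 0.702).

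Nfkbia, at 30.0, 43.3, 35.1, 40.2, 43.3 and 43.6 CPM, was higher than input by a log2 fold change of 0.47 (SE 0.10, adjusted p = 0.00194) and higher in 5 of 6 mice, the exception being mouse 155. Nfkbiz, at 8.36, 6.80, 10.0, 5.18, 5.25 and 5.46 CPM, spread more widely than in input and did not pass the test (log2 fold change -0.17, SE 0.18, adjusted p = 0.451). It was higher in the libraries of mice 155, 192 and 194, which also held less endothelial and immediate early RNA, and the part of these in the value was not tested. Mouse 194, the highest in microglia and border macrophage genes, was highest for Il1a, Ccl12, Ccl4, Ccl2 and Tnf as well. Without it Il1a stood at a log2 fold change of 2.25 and Ccl12 at 3.91. The positive fraction also held RNA of other cells, with mean sums of 5993 CPM for neuronal genes (6804 in input) and 3691 CPM for astrocyte genes (4616). The part of such RNA in the levels that follow was not tested. Per kilobase of exon, the order of levels in the positive fraction began with Nfkbia at 24.4 ± 3.45 CPM (SD, n = 6) and Ccl12 at 6.64 ± 1.70 CPM. Next came Ccl4 at 1.47, Ccl3 at 1.42, Nfkbiz at 1.36 and Il1a at 1.31 CPM per kilobase, which lay within their SDs of each other, then Ccl2 at 0.432, Il1b at 0.313, Tnf at 0.136 and Il6 at 0.0443.

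The same fraction held 12 of 12 microglia genes at a higher level than input, with a median log2 fold change of 3.64, and 8 of 8 border macrophage genes (median 3.13). It also held 3 of 7 endothelial genes at a higher level (Pecam1, 0.78, Ly6c1, 0.98, and Cldn5, 0.61), and 5 of 6 oligodendrocyte, 5 of 8 astrocyte, 2 of 6 choroid plexus and 1 of 7 neuronal genes at a lower one. When each library was scaled to its microglia list, which moved the median of all genes to -3.45, 0 of the 10 genes were higher in the positive fraction. Ccl12 (0.53, interval -0.26 to 1.33, adjusted p = 0.182), Ccl3 (-0.32, interval -1.42 to 0.79), Ccl4 (-0.24, interval -1.45 to 0.97) and Tnf (-0.69, interval -2.61 to 1.22) did not pass on that scale. Il1a was lower (-0.97, SE 0.33, adjusted p = 0.00569), and so were Il1b, Il6, Ccl2, Nfkbia and Nfkbiz. In terms of level, Ccl12 stood at 0.69 ± 0.13 CPM per 1000 CPM of the list in the positive fraction (SD, n = 6) and at 0.479 ± 0.330 in input. Il1a stood at 0.474 ± 0.115 and 0.904 ± 0.459, and Il1b at 0.115 ± 0.041 and 0.473 ± 0.308. Nfkbia, at 8.02 against 62.6, and Nfkbiz, at 1.31 against 17.03, were also lower on this scale.

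**Figure D4:**
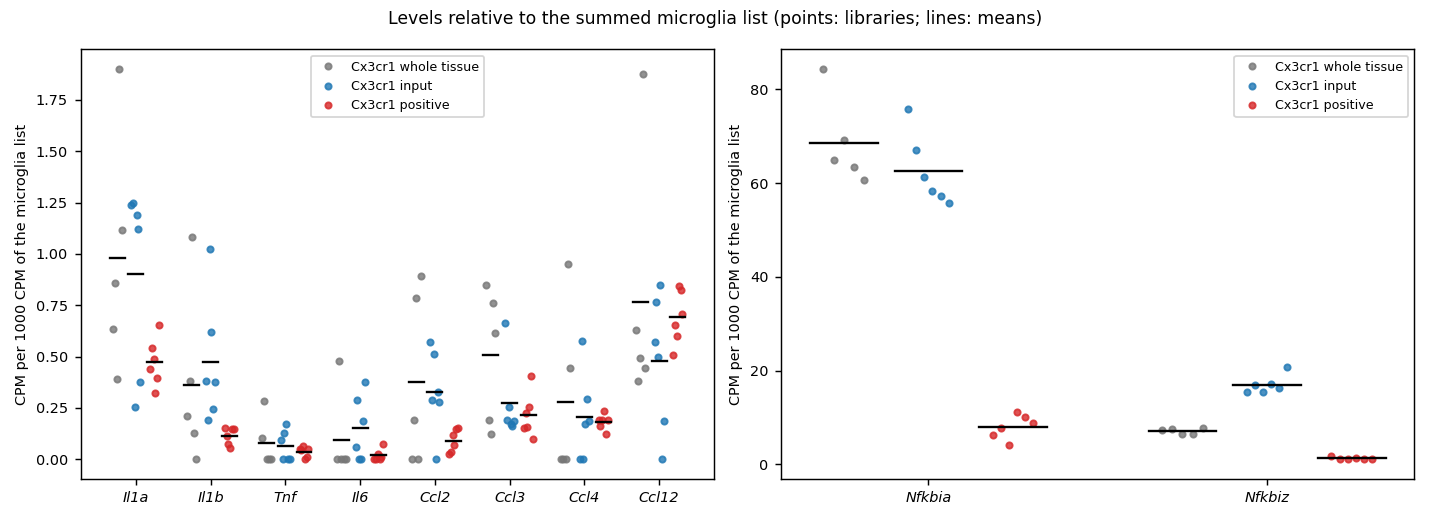
The plots give each gene's level in CPM per 1000 summed CPM of the 12 microglia genes (vertical axes, linear) in whole tissue, input and positive fraction of Cx3cr1-NuTRAP mice, with points for libraries and lines for means. The positive fraction sits within the range of the other groups for Ccl12 and far below both for Nfkbia and Nfkbiz.

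Partners of these ligands were counted beside the 23.3% of all genes that were higher and the 25.6% that were lower. Of 7 receptor genes tested, 4 were higher than input (among them Il6ra, log2 fold change 1.95, and the TNF receptors Tnfrsf1b, 2.67, and Tnfrsf1a, 1.44) and 2 lower (Il1rap, -0.88, and Il6st, -0.24). Of 8 other chemokines, 5 were higher and 0 lower, led by Ccl6 (3.28, adjusted p = 4.06e-08), Ccl9 (3.12, 1.35e-07) and Cxcl16 (2.43, 7.18e-07). Of 7 other cytokines, 3 were higher and 2 lower, led by Tgfb1 (2.85, adjusted p = 2.13e-07).
Among 14 further NF-κB genes 8 were higher and 1 lower, led by Nfkb2 (1.09, adjusted p = 1.32e-05), and among 7 effectors 4 were higher and 1 lower, led by the lipopolysaccharide receptor Cd14 (3.76, adjusted p = 7.5e-08). Immediate early genes went both ways, with 4 of 22 higher and 7 lower, and 0 of 7 heat shock genes were higher. Summed monocyte and neutrophil genes were 3.42 to 15.0 CPM in the positive fraction and 3.57 to 6.99 CPM in input. From 2 to 4 of the 11 were at 0 in a positive library. The part of these cells, of the border macrophages and of endothelial cells in the values was not tested.

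Against the negative fraction of the same mice, the positive fraction held more Ccl12, Il1a, Ccl3 and Ccl4 in 6 of 6 mice. Of the 4 genes that passed the filter, 2 were higher and 0 lower, where 12.8% of 13776 genes were higher and 11.6% lower. Both called genes passed the filter only through the positive fraction, so the count is no support. They were Ccl12 (log2 fold change 3.37, SE 0.27, and 3.355 with no filter) and Il1a (2.80, SE 0.41, and 2.79 with no filter). With no filter Ccl3 (2.47, adjusted p = 0.000542) and Ccl4 (3.23, adjusted p = 0.00114) joined them, for 4 of 10 higher and 0 lower, against 7.44% and 6.17%. Nfkbia (0.26, SE 0.12, adjusted p = 0.134) and Nfkbiz (-0.03, SE 0.18, adjusted p = 0.925) did not pass, but Nfkbia did without mouse 155 (0.43, adjusted p = 0.00175). Il1b (adjusted p = 0.112) passed without mouse 209 (0.0469), and Ccl2 (0.0641) without mouse 155 (0.0137). This comparison and the former share the positive fractions.

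In Aldh1l1-NuTRAP mice the astrocyte fraction was compared with the unbound RNA of the same brains. Nfkbia was the member that differed: it was measured at 97.2, 83.0 and 103.5 CPM in the positive fractions of mice 290, 293 and 294 and at 56.4, 45.2 and 48.4 CPM in their negative fractions. All 3 positive fractions lay above all 3 negative fractions, by 1.72 to 2.14 times within a mouse (log2 fold change 1.26, SE 0.17, adjusted p = 0.000791). Of the 2 genes that passed the filter, 1 was higher and 0 lower, where 26.8% of 13319 genes were higher and 24.8% lower, and with no filter 1 of 10 was higher and 0 lower, against 17.7% and 15.4%. With no scaling factors the genes called were 2438 higher and 4812 lower in place of 3569 and 3299, the median of all genes moved from 0.04 to -0.31, and Nfkbia stood at 0.92, still past the test.
Nfkbiz stood at 4.29, 8.004 and 9.51 CPM in the positive and 8.46, 8.87 and 9.61 CPM in the negative fractions, and was lower in CPM in 3 of 3 mice, at 0.507 to 0.991 times. The fit, which adds scaling factors to the library totals, put it at a log2 fold change of 0.04 (SE 0.29, interval -0.64 to 0.73, adjusted p = 0.909), and the sign changed in 3 of 11 alternatives, so no direction is given.

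The secreted factors had 0 to 6 counts on astrocyte ribosomes, above the floor of 3 only for Ccl2 and Ccl12 in mouse 290. Il1b had 0 counts in all 3 positive fractions and 2, 5 and 3 in the negative fractions. Il1a had 0, 3 and 0 counts, Tnf 2, 0 and 0, Il6 0, 1 and 0, Ccl2 4, 2 and 0, Ccl3 0, 0 and 2, Ccl4 1, 3 and 0, and Ccl12 6, 0 and 0. With 3 mice against 3 the exact permutation test cannot go below p = 0.1, and the adjusted p of these 8 genes with no filter ran from 0.071 to 0.907. Without mouse 290, whose negative fraction held 14 counts of Ccl12 against 8 in each of the others, Ccl12 passed as lower (adjusted p = 0.0171).
Other genes of the pathway were counted beside the 26.8% of all genes that were higher and the 24.8% that were lower. Of 13 NF-κB genes 3 were higher and 3 lower, close to those shares, led by Nfkb2 (log2 fold change 1.70), the subunit Rela (1.03) and the feedback inhibitor Tnfaip3 (-1.35). Of 7 receptors 2 were higher and 4 lower, among them Tnfrsf1a (2.90) and Il1rap (-1.53), and of 9 other cytokines 6 were higher and 3 lower, led by the alarm cytokine Il33 (1.94), Lif (3.31) and Il18 (2.50). Of 7 other chemokines 1 was higher (Cxcl14, 3.71) and 3 were lower, Ccl9 (-2.66) among them, and of 6 effectors 1 was higher (Vcam1, 2.89) and 2 were lower (Ptgs2, -2.10, and Cd14, -2.70). Of 22 immediate early genes 0 were higher and 13 lower. In the same fraction all 7 neuronal genes (median -1.67), all 6 oligodendrocyte genes (-2.9) and all 4 red cell genes (-2.07) were lower. The part of these in the immediate early values was not tested. All 8 astrocyte genes were higher (median 3.13), all 12 microglia genes lower (-2.35), and all 6 choroid plexus genes higher (2.35), at 2917 to 3377 CPM in sum against 488.6 to 637.7 CPM. The part of choroid plexus RNA in the value of Nfkbia was not tested.

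The fold of positive over negative fraction differed between the lines for 3 of the 4 genes that passed the filter, 2 larger and 1 smaller in Cx3cr1-NuTRAP mice, where 29.9% of 13983 genes were larger and 25.5% smaller. Ccl12 (difference of log2 fold changes 5.45, SE 1.03, adjusted p = 0.000203) and Il1a (4.49, SE 1.22, adjusted p = 0.00467) were the larger ones. Both passed the filter only through the positive fraction of Cx3cr1-NuTRAP mice, so their direction here is no support. Without mouse 294 Il1a did not pass (3.37, adjusted p = 0.0744), and since their counts on astrocyte ribosomes were 0 to 6 these sizes depend on how low counts are treated. Nfkbia went the other way (-0.96, SE 0.21, adjusted p = 0.000724), at 1.26 in the astrocyte and 0.26 in the microglial comparison. With no scaling factors 5712 genes were larger and 2604 smaller in place of 4179 and 3572, and the same 3 genes passed in the same directions. Nfkbiz did not pass (-0.03, SE 0.34, adjusted p = 0.941). The lines are separate sets of mice, and anything else that differs between the sets cannot be told apart from the line.

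Across all 29 libraries the genes closest in pattern, by Pearson's r of log2 CPM over 14109 genes, were I830077J02Rik (0.9), Cd68 (0.888) and Cd48 (0.879) for Il1a, and Plau (0.937), Il21r (0.936) and BC035044 (0.927) for Ccl12. For Nfkbia they were Nr2f6 (0.954), Vamp3 (0.954) and Gadd45g (0.952), and for Nfkbiz Ipo13 (0.899), Sec14l1 (0.873) and Tor1b (0.857). The libraries share mice and fractions, so these values only describe likeness.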

How the data were processed

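RNA from 29 TRAP fractions and tissue samples was sequenced as strand-specific, paired-end polyA libraries. In Strand NGS, the authors trimmed reads, mapped these to mm10 and quantified RefSeq genes. The deposited raw values are expected counts per gene, without normalization, and 81.4% of the nonzero ones are not whole within 0.001. The other deposited values are log2 values after the authors' DESeq normalization and were not used. The table of raw values was scaled to CPM and rounded for tests. Ccl2 and Ccl12, and Ccl3 and Ccl4, are related genes. Of the nonzero values, 12 of 26 were not whole for Ccl12, 4 of 23 for Ccl2, 6 of 26 for Ccl3 and 5 of 21 for Ccl4. For Il1a it was 6 of 26, and for Nfkbia and Nfkbiz 29 of 29. A sharing of reads between related genes was not tested.

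Where every library of a compared group held over 20 counts, a gene was tested with edgeR 4.0.16 (R 4.3.3; TMM scaling, robust quasi-likelihood test, two-sided, Benjamini-Hochberg adjustment over all genes tested, threshold 0.05), and the step was tested on simulated data. Alternatives included DESeq2 1.42.0. Intervals are at 95%. Those of log2 fold changes come from the fit and hold the spread between libraries, while those of pooled count ratios and the floor of 3 counts per library cover counting error only. CPM of single genes was compared by exact permutation (scipy 1.17.1). Within a group each library is from another mouse, and the groups of a line share mice.

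Fractions that share an animal number came from the same animal, so the numbers pair the samples. Deviations from group means correlated by 0.086 to 0.604 within mice for negative fraction and input, by 0.438 to 0.642 in Aldh1l1-NuTRAP mice, and by -0.146 to 0.071 for input and whole tissue, -0.228 to 0.209 for positive fraction and input and -0.288 to 0.244 for positive and negative fraction in Cx3cr1-NuTRAP mice. The main fit has no mouse term, as in the authors' own test.

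The 10 genes and 16 other lists were chosen with earlier results of these data known. Named genes were all 10 members, at most 3 genes of each other list by adjusted p (others were named after their values were seen, and 1 gene that the rule would name is not reported here), and the 3 genes most like each member with over 20 counts in every positive fraction of Cx3cr1-NuTRAP mice. Exon lengths are unions from GENCODE. Python 3.11.15 was used.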

Additional observations from a re-analysis of the deposited data

Results flagged for a closer look

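Among 40 sets of 1 gene in 1 group of 5 or 6 libraries, 8 had a library far from the rest by Dixon's test, where chance gives about 5%. The ratio of the gap to the range was 0.816 for Il1b in the positive fraction of Cx3cr1-NuTRAP mouse 209 (lowest, 4 counts), 0.644 for Ccl4 in that of mouse 194 (highest, 31 counts), 1.0 for Il6 in the whole tissue of mouse 194 (5 counts, all others 0) and 0.904 for Ccl12 in the whole tissue of mouse 210 (5 counts in the shallowest library). Mouse 155 was highest for Ccl3 in input (0.849, 7 counts), for Ccl4 in the negative fraction (0.765, 7 counts) and for Nfkbia in the negative fraction (0.646, 44.9 CPM). Mouse 277 was highest for Nfkbiz in input (0.629, 9.86 CPM). For the genes with under 10 counts, counting error alone gives gaps of several counts.

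The fold of positive over negative fraction differed between the lines, by a test of the difference itself, for Il1a (4.49 on the log2 scale, Cx3cr1 minus Aldh1l1), Ccl12 (5.45) and Nfkbia (-0.96). Il1a and Ccl12 were tested only because of their counts in the positive fraction of Cx3cr1-NuTRAP mice.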

How the results depend on the processing

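Nfkbiz was higher in input than in whole tissue under all 16 alternatives (log2 fold change 1.20 to 1.29, adjusted p 1.07e-13 to 0.00259), the mouse as a block among them (1.25, adjusted p = 0.00259), and Nfkbia passed under none of 16 (-0.23 to -0.07, adjusted p 0.0851 to 0.613). Over single genes and all alternatives, 670 kept their call or stayed uncalled (among them the uncalled values that changed sign), 17 lost and 9 gained a call, and 8 reversed. Among values not called, 47 of 465 changed sign, and 7 of 239 among those called. The cause was not tested for any change below, except that scaling to the microglia list moves every gene against that list by construction.

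All 8 reversals were in positive fraction against input scaled to the microglia list: Il1a -0.97, Nfkbia -2.97, Il1b -1.95, Il6 -2.88, Ccl2 -1.80, Ccl3 -0.32, Ccl4 -0.24 and Tnf -0.69. Members higher and lower then numbered 0 and 3 with the filter and 0 and 6 without it, and all genes 7 and 13667. Without the filter 8 members were higher in that comparison, and 5 to 8 with a mouse left out (5 without mouse 192 or 277). With all libraries in 1 fit 6 were higher, as with the mouse as a block, and the adjusted p of Il1b reached 0.0604 over the alternatives. Against the negative fraction 4 were higher.

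With the mouse as a block, negative fraction against input gave 1 member higher (Nfkbia, with and without the filter) and 2431 genes higher and 2684 lower, in place of 0, 194 and 646. Leaving out a mouse gave 0 to 1 members, 0 to 1774 genes higher and 0 to 2041 lower. The top of each range was without mouse 155, and without mouse 192, 194, 209, 210 or 277 at most 3 genes were higher and 0 lower. The genes higher and lower were 757 and 1289 with DESeq2, 0 and 59 with all libraries in 1 fit, 53 and 228 with no filter, 110 and 348 with a mean of at least 10 counts, and 78 lower scaled to the microglia list. The block changed no call of another member except those of Tnf and Ccl2 given in the report.

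For input against whole tissue, 1167 genes were higher and 1283 lower with all libraries in 1 fit, 850 were lower scaled to the microglia list, and 1322 to 2871 were higher and 1204 to 2771 lower with a library left out, lowest without mouse 192, 194 or 209 and highest without the whole tissue of mouse 210. With a mouse left out, positive against negative fraction of Cx3cr1-NuTRAP mice gave 1151 to 2090 genes higher and 570 to 2183 lower (fewest higher without mouse 194, fewest lower without mouse 192), and that of Aldh1l1-NuTRAP mice 1977 to 4887 and 1600 to 4844 (fewest without mouse 293 or 294). In the latter 0 to 1 members were lower with no filter (1 without mouse 290, Ccl12), and 1 with all libraries in 1 fit (Il1b). Between the lines 1 to 2 members were larger (1 without mouse 294). Depth limits the 8 secreted factors: at 0 to 14 counts per library in input and whole tissue, their intervals span several fold.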
